A study of Mus musculus with 4 samples.

Results

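The laminins, nidogens, basement membrane collagens and perlecan were followed across embryonic stem (ES) cells, induced pluripotent stem (iPS) lines and bone marrow mononuclear cells (BMMNCs) of the mouse. The 10 genes Lama1, Lama5, Lamb1, Lamc1, Nid1, Nid2, Col4a1, Col4a2, Col18a1 and Hspg2 were chosen by name, and a probe was theirs when its RefSeq accession belonged to the gene. Probes were found for 8 genes, 11 probes in all, among 33378 genes or transcripts on the array. Lama5 and Hspg2 are not analysed here. The samples were E14 ES cells of strain 129 (1 array), iPS lines 7 and 13 made from BMMNCs of Oct4-EGFP transgenic C57BL/6 mice (1 array each), and C57BL/6 BMMNCs (1 array). ES and iPS cells shared the culture on irradiated mouse embryonic fibroblasts with serum and leukemia inhibiting factor, and were depleted of these feeder cells on gelatin before RNA was taken. Strain, origin and reporter differ together between iPS and ES cells and cannot be told apart.

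A basement membrane is a thin sheet of matrix under epithelia and around several other cell types. Laminin trimers of an alpha, a beta and a gamma chain polymerise at the cell surface, type IV collagen chains form a second network, and nidogens and perlecan tie both together. In the early mouse embryo the first basement membranes form between the epiblast and the endoderm, and parietal endoderm secretes large amounts of the same proteins. Fibroblasts also make several of these chains, while most blood cells make few of them.

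All levels below are log2 processed signals relative to the 75th percentile of the array, which was 1003 in ES cells, 1068 in line 7, 1070 in line 13 and 581 in BMMNCs. Between 54.6% and 59.0% of probes were well above background on an array; with 4 arrays in all, precision is limited by their number. Each of the 11 probes had 1 spot, and probes printed 10 times varied between spots by a median SD of 0.081 to 0.096 in log2 units. Of the pluripotency markers 7 of 7 were well above background in ES cells and in both lines, and 7 of 7 blood markers in BMMNCs. Detection alone did not separate the cells. In BMMNCs 3 of 7 pluripotency markers were also above background, as were 3 of 7 blood markers in ES cells and 2 in both lines. By level, 7 of 7 pluripotency markers rose and 7 of 7 blood markers fell in iPS lines against BMMNCs (limma), against 38.3% and 37.4% of all genes. The pluripotency marker, Zfp42, was far lower in both lines (3.37 and 3.62) than in ES cells (7.19). The difference was -3.69 (SE 0.16, limma adjusted p = 0.0426). The call was lost with the value table of the series (0.0549) and without the filter on dim probes (0.157). Of the 7 pluripotency markers, 0 were higher in line 7 than in line 13. The median difference between the lines over all genes was -0.029, and the share of all genes lower in line 7 is not given here. Of 8 endothelial markers 2 rose, 3 fell and 3 did not pass against BMMNCs, and Esam alone rose against ES cells (1.38, adjusted p = 0.0452; lost with the same settings, 0.0559 and 0.17); all 5 megakaryocyte markers fell against BMMNCs. The labels name separate lines but no separate cultures or animals. Each p-value here rests on the gap between lines 7 and 13, in part perhaps technical, and on a prior over all genes. It holds no spread among ES cells or among BMMNCs, which are single arrays.

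Promoter windows of RefSeq (build GRCm38.p6) were at hand for 7 of the 10 genes, and 3 stretches are shown. The 250 bases before the start of Nid1 and before the upstream start of Col18a1 have every match to GGGCGG or CCAAT, on either strand, in capitals. The Col18a1 window was picked for its 3 GGGCGG matches. The window of the other Col18a1 start, with 0 matches to either motif, and that of Lamb1 are not printed. The third stretch holds the starts of Col4a1 and Col4a2, which face away from each other on opposite strands and whose first bases overlap; the 22 bases from one start to the other are in capitals.
Nid1, chr13:13437352-13437601, plus strand: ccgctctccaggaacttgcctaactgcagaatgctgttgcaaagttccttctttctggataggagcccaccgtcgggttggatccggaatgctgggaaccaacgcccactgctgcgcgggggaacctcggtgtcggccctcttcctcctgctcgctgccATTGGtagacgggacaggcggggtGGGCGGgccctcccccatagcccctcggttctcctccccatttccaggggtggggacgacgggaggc
Col18a1, chr10:77166531-77166780, minus strand: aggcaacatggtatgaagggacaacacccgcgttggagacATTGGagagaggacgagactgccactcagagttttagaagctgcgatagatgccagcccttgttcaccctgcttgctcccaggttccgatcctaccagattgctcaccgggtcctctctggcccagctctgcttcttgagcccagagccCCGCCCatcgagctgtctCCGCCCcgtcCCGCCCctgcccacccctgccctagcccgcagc
Col4a2 and Col4a1, chr8:11312801-11312830, plus strand: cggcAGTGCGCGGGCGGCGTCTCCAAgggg

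In the 250 bases before a start, GGGCGG was found in 6 of the 8 windows of these genes, against 32.7% of 32851 windows in the table, and CCAAT in 5 of 8 against 33.85%. These windows include those of Lama5 and Hspg2, which have no probe here, and that of Lamb1, which may overlap another transcript. Those of Col4a1 and Col4a2 each lie on the transcribed side of the other gene's start. The window of the downstream Col18a1 start lies on the transcribed side of the upstream start. TATAAA was found in 0 of 8, against 12.4%, and GATAA in 0 of 8, against 22.6%; matches of different motifs did not overlap in these windows. GC made up 57.6% to 74.4% of the bases. The table holds a window for each of 2 Col18a1 starts, and which of them the array's transcript uses was not tested.

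The series title concerns the reprogramming of marrow cells, so iPS lines were first compared with BMMNCs. Each of the 8 genes with a probe was far higher in both iPS lines, with fitted differences of 4.96 to 9.44 on the log2 scale, and passed the test (limma across all genes, adjusted p from 0.000706 to 0.000792). Over all 21216 genes tested, 38.3% were higher by this test. The median difference of the 8 genes was 7.88, or 7.46 with genes below background in BMMNCs set to their bound, against 0.0076 over all genes. Lama1, Lamb1, Nid2 and Col4a2 were above background in ES and iPS cells alone and so entered the test only through the cells where they are high; Lamc1, Nid1, Col4a1 and Col18a1 were above background on all 4 arrays. With normexp background correction, which compresses low signals with an offset, the differences of the first 4 shrank to 2.54, 5.77, 5.91 and 5.61, below the bounds given for them here, and still passed. In bulk RNA, fewer cells of a type and less RNA per cell cannot be told apart.

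**Figure D1:**
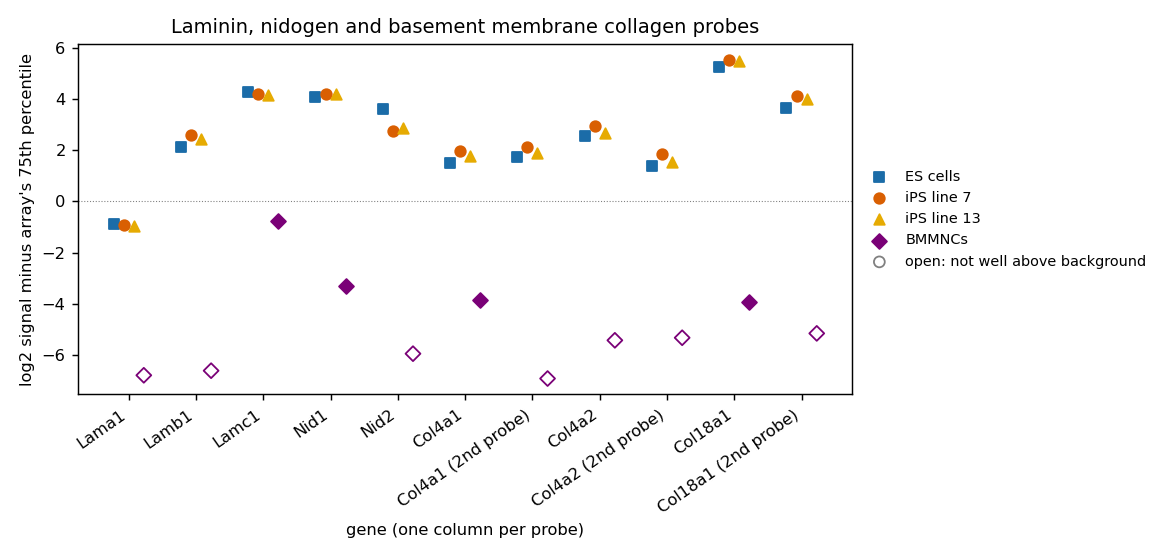
Log2 signal relative to the array's 75th percentile (vertical axis) for the 11 probes of 8 genes (horizontal axis), 1 point per array; open symbols were not well above background. In every column the ES and iPS points lie within 0.86 of each other, and the BMMNC point lies lower, from -0.78 for Lamc1 down to -6.93 for the second Col4a1 probe.

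The laminin chains came first. Lamc1, the gamma chain shared by most laminins, was at 4.27 in ES cells, 4.19 in line 7, 4.16 in line 13 and -0.78 in BMMNCs. In processed signal this is 19416, 19537, 19175 and 338, so the BMMNC array read the gene clearly while the other arrays read it far higher. The iPS mean of 4.18 ± 0.021 (SD, n = 2) was 4.96 above BMMNCs (SE 0.093, 31.1-fold, limma adjusted p = 0.000712), the smallest difference among the 4 genes above background on all arrays. Lamb1, the beta chain that pairs with Lamc1 in the laminins of the early embryo, was at 2.12 in ES cells, with 2.61 in line 7 and 2.45 in line 13. In BMMNCs it was not well above background at -6.62, and iPS cells were at least 170-fold higher. The limma adjusted p of 0.000706 belongs to the fitted difference of 9.15, which uses that dim BMMNC value, and not to the bound.

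Lama1, the alpha chain of the first embryonic laminin, was at -0.90 in ES cells, with -0.93 in line 7 and -0.94 in line 13. It was not well above background in BMMNCs (-6.80), which gives a ratio of at least 15.4-fold for iPS cells and at least 15.8-fold for ES cells. The 3 values of stem cells lay within 0.045 of each other, less than the spread between spots of 1 probe.

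The nidogens bind laminin gamma chains and type IV collagen. Nid1 was at 4.08 in ES cells and at 4.20 in both lines, with -3.30 in BMMNCs, where it was above background; iPS cells were 7.50 higher than BMMNCs (SE 0.092, 181-fold). Nid2 was at 3.62 in ES cells but at 2.77 in line 7 and 2.88 in line 13, and was not well above background in BMMNCs (-5.95). Both lines thus had less Nid2 signal than ES cells. The ratio to BMMNCs was at least 209-fold for iPS cells and at least 363-fold for ES cells.

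The type IV collagen chains Col4a1 and Col4a2, which assemble into 1 trimer, were each read by a pair of probes. The Col4a1 probe with the higher mean over all 4 arrays, used in the test, gave 1.52 in ES cells, 1.97 in line 7, 1.77 in line 13 and -3.85 in BMMNCs. The other Col4a1 probe was brighter in stem cells, at 1.73, 2.14 and 1.90, but gave -6.93 in BMMNCs, not well above background, so the probes disagree on whether marrow cells hold any Col4a1 signal. The iPS difference from BMMNCs was 5.73 by the first (SE 0.14, 52.9-fold) and at least 120-fold by the second. Col4a2 was at 2.56 in ES cells, with 2.97 in line 7 and 2.69 in line 13, and neither of its probes was well above background in BMMNCs (-5.43 and -5.33). iPS cells were at least 209-fold higher by the brighter Col4a2 probe and at least 95.3-fold by the other.

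Col18a1, whose collagen carries heparan sulfate chains and releases endostatin from its end, had the largest difference among the 4 genes above background on all arrays. It was at 5.27 in ES cells, 5.54 in line 7, 5.49 in line 13 and -3.93 in BMMNCs, a difference of 9.44 for iPS cells (SE 0.096, 693-fold, limma adjusted p = 0.000706). A difference as large was found for 0.311% of all genes tested. Its second probe, below background in BMMNCs, gave at least 488-fold.

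ES cells and BMMNCs are single arrays, so this comparison has no replicate check and no p-value. By size, 8 of the 8 genes were at least 4-fold higher in ES cells, against 17.3% of all genes. Differences ran from 5.05 (Lamc1) to 9.20 (Col18a1) among the 4 genes above background on both arrays, and the bounds of the others from at least 15.8-fold (Lama1) to at least 363-fold (Nid2). This comparison and the one above share the BMMNC array, which is the only one of its kind.

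Fibroblast markers stood in the same arrays at high levels. All 12 of the list were well above background in ES cells and in both lines, and 4 of 12 in BMMNCs; their summed level was 8.50 in ES cells, 8.73 in line 7, 8.65 in line 13 and 3.10 in BMMNCs. The collagens Col1a1 and Col1a2, with iPS differences from BMMNCs of 9.03 and 9.26, led the list among genes read on both sides, and Pdgfrb (3.74) and Thy1 (1.46) had the lowest values among them. Of 11 endoderm markers tested, 9 were above background in ES cells and 10 in both lines, with summed levels of 3.09, 3.33, 3.24 and 6.43 in the same order of arrays; the last value rests on Srgn, also a blood cell gene, at 6.38. The endoderm regulators Gata6 and Foxa2 rose against BMMNCs, to at least 15.7-fold and at least 9.38-fold, and Gata4 was above background in BMMNCs alone. The part of feeder or endoderm-like cells in the levels of basement membrane genes was not tested.

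ES cells were then set against the iPS lines. None of the 8 genes passed the test over all genes (limma adjusted p from 0.0701 to 0.798). The lowest adjusted p of any gene in this comparison was 0.0426, so the lack of a call does not show likeness. Over all genes 4.65% were called, 1.93% as higher and 2.72% as lower in iPS cells. Of the 8 genes 2, Nid2 and Lamb1, had an unadjusted limma p under 0.05, as did 6588 of all 21216 genes tested. ES cells lay below both lines for 5 genes and above both for 3. The share of all genes with ES cells outside both lines is not given here, so these counts are not read as particular to the 8 genes. The median difference of the 8 genes was 0.18, with -0.05 over all genes tested.

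**Figure D2:**
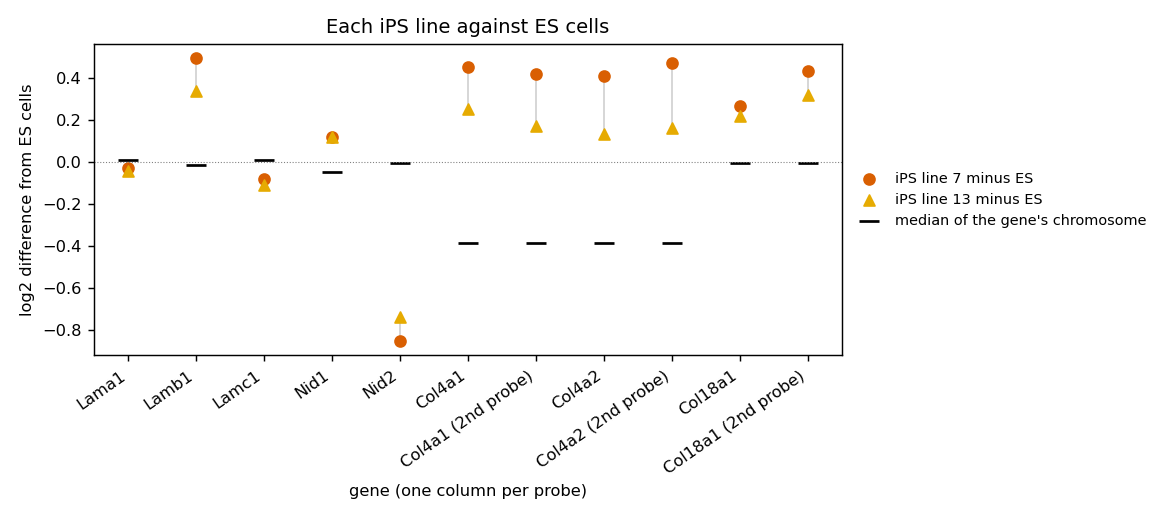
Log2 difference of each iPS line from ES cells (vertical axis) for the 11 probes (horizontal axis), with a dash at the median of all genes of the same chromosome above background in these cells. Nid2 lies lowest at -0.86 and -0.74, Lamb1 and the collagen probes lie above 0 in both lines, and Lama1, Lamc1 and Nid1 lie within 0.12 of 0.

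Nid2 had the largest difference, -0.80 (SE 0.11, 1.74-fold lower in iPS cells, limma adjusted p = 0.0701). It was -0.86 in line 7 and -0.74 in line 13, so the lines differed from each other by far less than from ES cells. Nid2 passed the threshold with an intensity trend in the variance prior (adjusted p = 1.02e-06) and with normexp background correction (adjusted p = 0.00371), and its adjusted p over 9 settings ran from 1.02e-06 to 0.255. Of all genes, 7.56% differed as far or farther in this direction. Its relative Nid1 differed by 0.12 (SE 0.092, adjusted p = 0.461).

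Lamb1 was 0.49 higher in line 7 and 0.34 higher in line 13 than in ES cells (mean 0.41, SE 0.12, adjusted p = 0.159). Of its partner chains, Lamc1 differed by -0.10 (SE 0.093) and Lama1 by -0.04 (SE 0.092; 0.045 with median scaling, a change of sign). Neither Lamc1 nor Lama1 was told apart from 0 by the fit, whose SE rests on the gap between the lines and on the prior.

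Col4a1 and Col4a2 differed by 0.35 (SE 0.14, adjusted p = 0.219) and 0.27 (SE 0.17, adjusted p = 0.374), and the second probes gave 0.30 and 0.31. Line 7 was above line 13 by each of the 4 probes. Both genes lie on chromosome 8, whose 601 genes above background in ES cells and both lines had a median of -0.40 in line 7 and -0.38 in line 13. The collagen pair thus lay on the other side of 0 from the median of its chromosome, while the chromosomes of the other genes had medians from -0.05 to 0.0085. Col18a1 differed by 0.24 (SE 0.096) and by 0.38 with its second probe.

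In the same comparison the fibroblast markers had a median of 0.25, with 11 of 12 above 0 and 0 of 12 past the threshold. Of these 12, 1 had an unadjusted limma p under 0.05, against 6588 of 21216 over all genes. The median over all genes was -0.05, and the share of all genes above 0 is not given here. Endoderm markers had a median of 0.17, and Sox7 alone rose among the 11 tested (3.25, adjusted p = 0.0426), from a level not well above background in ES cells; the call was lost with the value table of the series (0.0549) and without the filter on dim probes (0.157). Nid2 lay outside the range of the fibroblast markers, from -0.03 to 0.72. Whether feeder RNA has a part in the difference of Nid2 or in the small positive differences was not tested.

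Between the lines, which are single arrays, 0 of the 8 genes reached 2-fold, against 2.44% of all genes. Line 7 was higher for 7 of 8 genes, where the median difference over all genes was -0.029. Col4a2 had the largest gap, 0.27 (1.21-fold), followed by Col4a1 (0.20) and Lamb1 (0.16), and Nid2 was the exception at -0.12. Lama1, Lamc1, Nid1 and Col18a1 differed by under 0.1. The fibroblast markers were higher in line 7 in 12 of 12 cases, with a median of 0.12. The share of all genes higher in line 7 is not given here. These counts are therefore not read as particular to the genes listed.

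The order of the arrays was therefore not the same for each gene. Lamb1, Nid1, Col4a1, Col4a2 and Col18a1 ran from line 7 through line 13 and ES cells to BMMNCs. Nid2 ran from ES cells through line 13 and line 7 to BMMNCs, and Lama1 and Lamc1 from ES cells through line 7 and line 13 to BMMNCs. For 7 of 8 genes the gap from ES cells to the nearer line was wider than the gap between the lines; for Col4a2 it was narrower, 0.13 against 0.27. The second Col4a1 probe, too, gave a narrower gap, 0.17 against 0.25, so the count rests on the probe chosen. Over all genes the median absolute difference was 0.25 between the iPS mean and ES cells and 0.11 between the lines. A wider gap from ES cells is therefore not particular to these genes. The gaps between stem cells for Lama1, between the lines for Lamc1, Nid1 and Col18a1, and between line 7 and ES cells for Lamc1 were no wider than the spread between spots.

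Other laminin chains were mostly high in stem cells as well. Of 6 listed, 5 had a probe, 4 were tested and 3 rose against BMMNCs. Lama4, Lamb2 and Lama2, chains of vessel, kidney and muscle basement membranes, were at least 41.6-fold, 67.6-fold and 5.90-fold higher in iPS cells. Lamb3, an epithelial beta chain, was dim but above background on all 4 arrays, at -4.15, -3.67, -3.37 and -4.08, and did not pass against BMMNCs (0.56, SE 0.18, adjusted p = 0.073); it passed among genes above background on all arrays (0.000468) and with an intensity trend (0.0309). Lamc3 did not reach the level well above background anywhere.

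**Figure D3:**
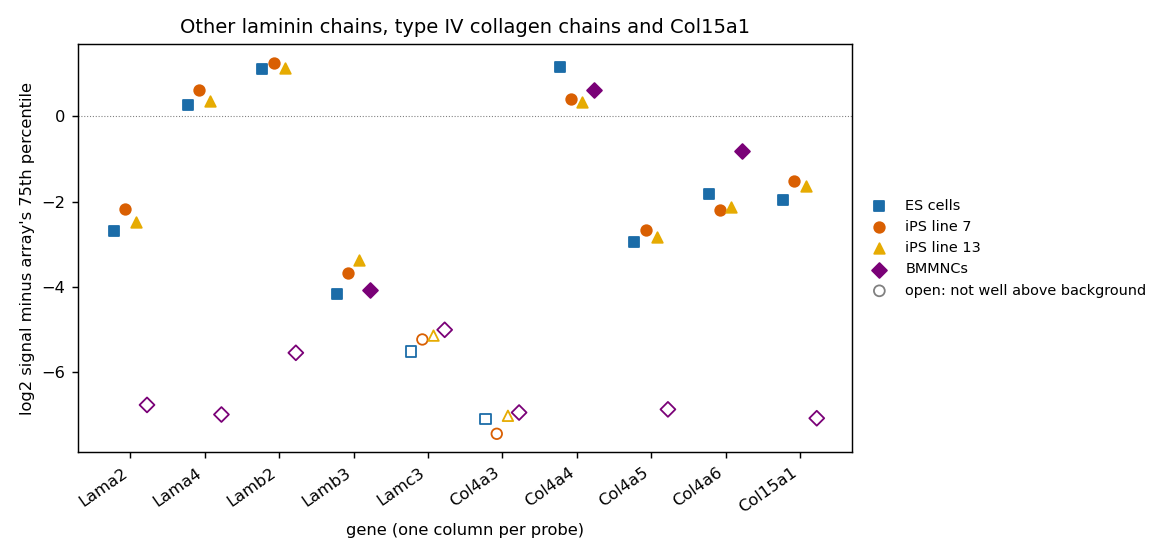
Log2 signal relative to the array's 75th percentile (vertical axis) for the brightest probe of other laminin chains, type IV collagen chains and Col15a1 (horizontal axis), 1 point per array; open symbols were not well above background. Col4a4 and Col4a6 lie at like or higher levels in BMMNCs, while Lama2, Lama4, Lamb2, Col4a5 and Col15a1 lie below background there.

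The other type IV chains were mixed. Col4a6 fell against BMMNCs by 1.35 (SE 0.096, limma adjusted p = 0.00311; its second probe was below background on every array), and 37.4% of all genes fell. Col4a4 was at 1.15 in ES cells, 0.40 in line 7, 0.34 in line 13 and 0.61 in BMMNCs, and differed from BMMNCs by -0.25 (adjusted p = 0.112; past the threshold in 4 other settings, lowest 0.0222). Col4a5 was at least 4.39-fold higher in iPS cells, and Col15a1, the closest relative of Col18a1, at least 9.91-fold. A second Col15a1 probe did not reach the level well above background on any array. Col4a3 was below that level on all 4 arrays. In this list 2 rose, 1 fell and 1 did not pass of 4 tested.

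Of 10 other basement membrane components tested, 8 rose against BMMNCs, 1 fell and 1 did not pass. Sparc, a collagen-binding matrix protein, rose by 7.95 (SE 0.096) and Ecm1 by 4.83 (SE 0.11). Agrn, the heparan sulfate proteoglycan agrin, rose by 3.85 and was at 1.85 in BMMNCs. Tinagl1 was the 1 that fell, by 0.95 (SE 0.12).

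Enzymes and chaperones that fold and crosslink collagen rose in 9 of 11 cases. P4ha2, a catalytic subunit of collagen prolyl hydroxylase, rose by 8.26 (SE 0.097), and Serpinh1, the collagen chaperone, by 7.95 (SE 0.099). P4hb, the subunit that also serves other proteins as a disulfide isomerase, rose by 0.41 (SE 0.10, adjusted p = 0.0408), a call lost with median scaling, without the filter on dim probes and with ES and iPS arrays as 1 group (adjusted p from 0.0702 to 0.174). Colgalt1, which glycosylates collagen, differed by -0.11 (SE 0.092, adjusted p = 0.349).

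Among proteases and inhibitors of the matrix 7 of 8 rose, led among genes read on both sides by the inhibitors Timp1 (8.54, SE 0.11) and Timp3 (6.99, SE 0.12), while Timp2 rose by 1.47 (SE 0.26). Mmp9, a gelatinase that degrades type IV collagen and is stored by neutrophils, fell by 5.70 (SE 0.16). It was at -1.86 in ES cells, -1.11 in line 7, -1.36 in line 13 and 4.46 in BMMNCs.

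Receptors for basement membranes rose in 10 of 11 cases, but by less, with a median of 2.24. Itga3 and Dag1, receptors of laminin, rose by 4.45 (SE 0.13) and 3.43 (SE 0.11), though the dimmest Itga3 probe was higher in BMMNCs (-2.53) than in the lines (-3.22 and -3.41). Itgb1, the beta subunit of most laminin and collagen integrins, was at 1.22 in BMMNCs and rose by 1.94 (SE 0.15). Sdc4 rose by 1.44, a call lost with ES and iPS arrays as 1 group (adjusted p = 0.295), and Itga1 differed by -0.15 (SE 0.11, adjusted p = 0.295). Itga1 was lower in iPS cells with the mean of its probes (-1.57, adjusted p = 0.00247) and with normexp (-0.30, adjusted p = 0.0212), and its second probe was at least 3.72-fold higher in BMMNCs.

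Against ES cells, receptors were the 1 list of these 6 with calls, 2 of 11, against 4.65% of all genes. Itga1, a collagen receptor, was at -4.28 in ES cells, -2.42 in line 7, -2.52 in line 13 and -2.32 in BMMNCs, and rose by 1.81 over ES cells (SE 0.11, limma adjusted p = 0.0432). Its second probe was below background in these stem cells and gives no check. Sdc4, a heparan sulfate proteoglycan of the cell surface, rose by 1.38 (SE 0.097, adjusted p = 0.0452), but its second probe gave -0.93, so its direction is uncertain. By their brightest probes 11 of 11 receptors had a difference above 0, with a median of 0.51, and 10 of 11 when Sdc4 is read by its second probe. The share of all genes above 0 is not given here, so these counts are not read as particular to receptors. Both calls were lost with the value table of the series (adjusted p = 0.0557 for each) and without the filter on dim probes (0.157 and 0.17), and Sdc4 differed by 0.23 with the mean of its probes (adjusted p = 0.247). In the other 5 lists (laminins, type IV and XV collagens, other components, folding and crosslinking, turnover) 0 of 37 genes passed. Of these 37, 9 had an unadjusted limma p under 0.05, as did 8 of the 11 receptors, against 6588 of 21216 over all genes.

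**Figure D4:**
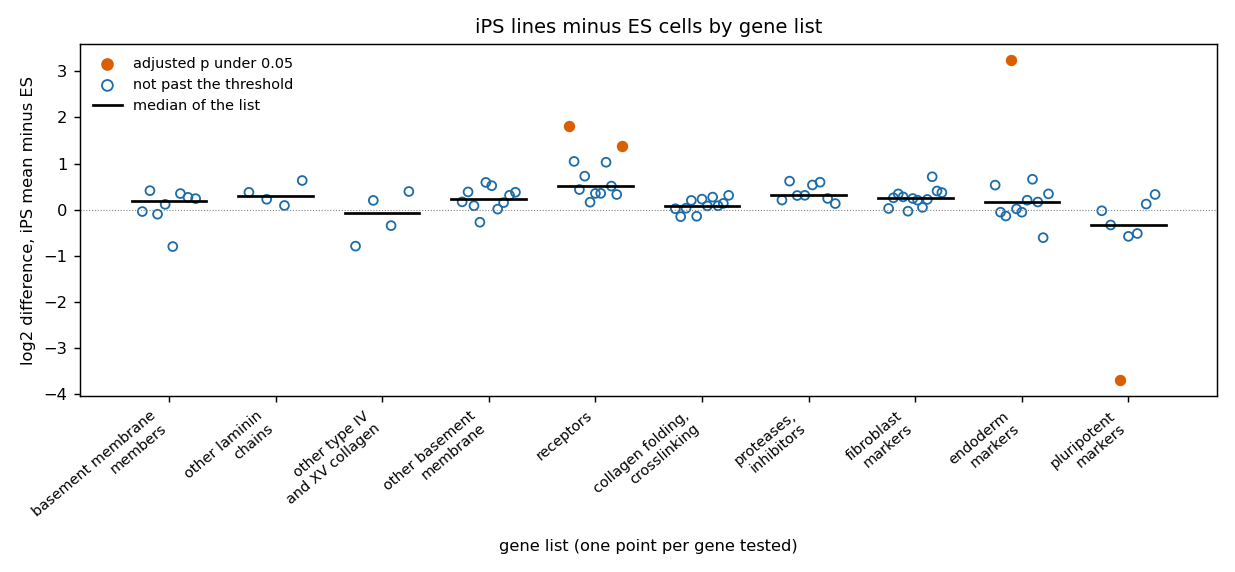
Log2 difference of the mean of both iPS lines from ES cells (vertical axis) for each gene tested, grouped by list (horizontal axis); filled points passed the adjusted threshold and bars are list medians. The basement membrane genes lie between -0.80 and 0.41 with a median of 0.18, and the receptors lie highest with a median of 0.51.

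The genes nearest in pattern were sought among 10001 named genes that were above background on each of the 4 arrays, by the Euclidean distance of centred levels over 4 arrays to the mean profile of Lamc1, Nid1, Col4a1 and Col18a1. Rab34, Adamts2, Gpx8, Slc6a8 and Tgfb3 were nearest, with distances from 0.10 to 0.21. They were nearer than the 4 genes themselves, whose distances ran from 0.53 (Nid1) to 2.17 (Col18a1). Rab34 was at 3.50 in ES cells, 3.76 in line 7, 3.71 in line 13 and -3.29 in BMMNCs. With 1 array per cell type but for the lines, this likeness is mostly the step between BMMNCs and the other arrays.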

How the data were processed

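Cy3-labelled RNA of 4 samples was hybridised to single-colour Agilent arrays on 1 slide and read with Agilent Feature Extraction 9.5, per the submitters' processing notes (9.5.1.1 per the file headers). The deposited intensities are the processed signals of that software, one per spot, per the file headers. The deposited intensity value table of the series is the processed signal times a constant for each array, linear and not centred by gene, with column medians of 139.9, 135.9, 133.6 and 106.2 (ES cells, line 7, line 13, BMMNCs); the origin of these constants is not given in the sources used here.

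After control spots and 14 probes with outlier spots were dropped, spots were averaged, and log2 signal minus the 75th percentile was used. Accessions named 22951 of 41174 probes through RefSeq (GRCm38.p6). A gene took its brightest probe by the mean log2 level over 4 arrays; 21216 genes above background (a share of at least 0.5 of spots) on at least 1 array were tested with limma 3.58.1 in R 4.3.3. Means were fitted for ES cells, iPS lines and BMMNCs, with 1 residual degree of freedom from the lines (prior 1.80 degrees of freedom, SD 0.094) and Benjamini-Hochberg adjustment at 0.05; single arrays are taken to vary like the lines. "At least N-fold" sets a dim probe at the higher of its own signal and the lowest signal well above background on that array. ES cells against BMMNCs (4-fold) and line 7 against line 13 (2-fold) used size alone. The fit was also run on simulated data, in which all 4 arrays had the same spread for a gene. That run cannot check whether single arrays vary like the lines.

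The genes, lists and motifs were chosen with earlier results of these data known. Named genes are the 10 genes, list genes past the threshold against ES cells, the 2 largest and 2 smallest differences per list read on both sides, and the 5 nearest profiles; other names, Lama2 to Lamc3 and the type IV relatives among them, were chosen after their values were seen. Not all chains of the family are reported here. For markers of cell types other than fibroblasts, the largest and smallest differences are not given. Alternatives covered scaling, background correction, filter, probe choice, prior and samples; normexp used the median spot signal in place of the planned mean signal, which is not used here.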

Additional observations from a re-analysis of the deposited data

How the results depend on the processing

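The 8 genes kept their direction and their call against BMMNCs in each setting in which they were tested, with differences from 2.54 (Lama1, normexp) to 9.55 (Col18a1); only 4 of the 8 could be tested among genes above background on all 4 arrays. With normexp the differences ran from 2.54 (Lama1) to 8.08 (Col18a1). Scaling moved the median of all genes against BMMNCs from 0.0076 to -0.20 (median scaling and normexp) or 0.12 (value table), far less than these differences. Without 1 line, the values against ES cells ran from -0.86 to 0.49 over the 8 genes. Each gene kept its own side of 0, below it for Lama1, Lamc1 and Nid2 and above it for the others.

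Against ES cells the calls rest on settings. Normexp called 1 of the 8 higher (Lamb1) and 1 lower (Nid2), with 2429 genes higher and 3187 lower in all. Genes above background on all 4 arrays gave 1 of the 8 higher (Col4a1), with 2472 higher and 3253 lower. An intensity trend gave 3 of the 8 higher (Lamb1, Col4a1, Col18a1) and 1 lower (Nid2), with 3333 higher and 4232 lower. The value table and the fit without a filter on dim probes called 0 genes higher and 0 lower (limma; 6637 and 4678 at an unadjusted p under 0.05), against 410 and 577 in the chosen setting. Lama1 turned to 0.045 with median scaling. By size, normexp left 1730 genes higher and 2108 lower in ES cells than in BMMNCs, and 57 and 63 between the lines, against 3671, 3344, 280 and 237. The cause of these changes was not tested. No paired analysis was possible because the groups share fewer than 2 replicate numbers. The low signal of BMMNC probes limits the ratios to bounds for Lama1, Lamb1, Nid2 and Col4a2.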
